A study of Mus musculus with 9 samples.

Results

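Epidermal barrier lipid enzymes make and finish the lipids that seal the outer skin. This account follows 7 of them, chosen by gene symbol from the 22609 genes in the count files: Elovl1, Elovl4, Cyp4f39, Ugcg, Smpd1, Alox12b and Aloxe3. All 7 passed the low-count filter, as did 16091 genes in all, and all 7 also passed it on the DRG and spinal cord libraries alone. The mice were C57 males, 8 to 12 weeks old, and 3 of their tissues were sequenced: dorsal root ganglia (DRG, levels L3 to L5, which hold sensory neuron cell bodies), lumbar spinal cord, and punch biopsies of the hind paw. Every mouse had received 2 intraperitoneal injections of paclitaxel, a chemotherapy drug that stabilises microtubules, at 2 mg/kg, and a lymphotoxin-beta receptor (LTβR) antagonist, of which 15 µg went into the hind paw and 15 µg into the spinal canal. Tissues were taken 6 days after the last paclitaxel dose. The titles place the antagonist on days 1 and 4, whereas the series text has it given between injections and again 1 day later. There were 3 libraries for each tissue. Libraries from mice given IgG are not analysed here, so each comparison is between tissues of treated mice and no drug effect was tested. The labels do not say that the libraries of a tissue came from separate animals, so p-values measure the spread between these libraries, which may be technical.

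As background, the water barrier of skin is built from ceramides with unusually long fatty acids. Elovl1 and Elovl4 lengthen fatty acyl chains, and Cyp4f39 (the mouse counterpart of human CYP4F22) hydroxylates the far end of the longest ones. Ugcg adds glucose to ceramide for transport to the cell surface, and Smpd1, acid sphingomyelinase, releases ceramide from sphingomyelin. Alox12b and then Aloxe3 oxidise the linoleate carried by acylceramides, a step needed to attach them to the cornified envelope. In the nervous system Ugcg supplies the precursor of gangliosides, Smpd1 acts in lysosomes, and Elovl4 is known from neurons and photoreceptors.

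Libraries held 15537545 to 23229724 gene reads, and 3 reads, taken as the floor, corresponded to 0.134 to 0.185 CPM (a gene's reads divided by the TMM-scaled library size and multiplied up to a common depth). The tissue labels fitted their markers. The 14 keratinocyte markers summed to 41654 to 60698 CPM in paw, the 5 sensory neuron markers to 4321 to 5113 CPM in DRG, and the 5 astrocyte and oligodendrocyte markers to 2506 to 2970 CPM in spinal cord. Paw also held skeletal muscle transcripts, with 5 markers summing to 12121 to 15202 CPM, and so did DRG, at 573, 890 and 28.5 CPM in libraries 1 to 3. Sebocyte markers summed to 723 to 857 CPM in paw and at most 17.4 CPM elsewhere, and adipocyte markers to 88.5 to 106 CPM and at most 3.57 CPM. Schwann and satellite glia markers were at 15281 to 20366 CPM in DRG, 7508 to 11179 CPM in spinal cord and 568 to 694 CPM in paw. Fibroblast markers were at 3149 to 3874 CPM in paw, 1993 to 2875 CPM in DRG and 347 to 1042 CPM in spinal cord, and 4 of the 5 were not called between paw and DRG, so neither list marks a single tissue. Spinal neuron markers were at 606 to 695 CPM in spinal cord and at most 1.77 CPM elsewhere. In these bulk samples fewer cells of a type and less RNA per cell cannot be told apart.

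All 7 genes had their highest mean level in paw, but by very different margins. Alox12b and Aloxe3 were nearly confined to paw, with 99.5% and 98.5% of the sum of their 3 tissue means there. Elovl4 had 89.4% and Cyp4f39 85.8% in paw. Smpd1 had 49.6%, Elovl1 41.96% and Ugcg 41.1%. Here a call means an adjusted p under 0.05 (Benjamini-Hochberg, over all 16091 genes). Against spinal cord, 7 of the 7 were called higher in paw, and 0 lower, where 39.9% of all tested genes were higher, 41.7% lower and 81.6% called in either direction. Against DRG, 5 of the 7 were called higher in paw, and 0 lower, beside 39.7% higher, 40.8% lower and 80.5% in either direction among all tested genes, and Elovl1 and Ugcg were not called. Between DRG and spinal cord, Cyp4f39, Elovl1 and Ugcg were called higher in DRG (29.0% of all tested genes) and Aloxe3, Alox12b and Smpd1 lower (30.6%, with 59.6% in either direction). Elovl4 was not called there. A share of called enzymes is to be read against these high backgrounds.

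**Figure D1:**
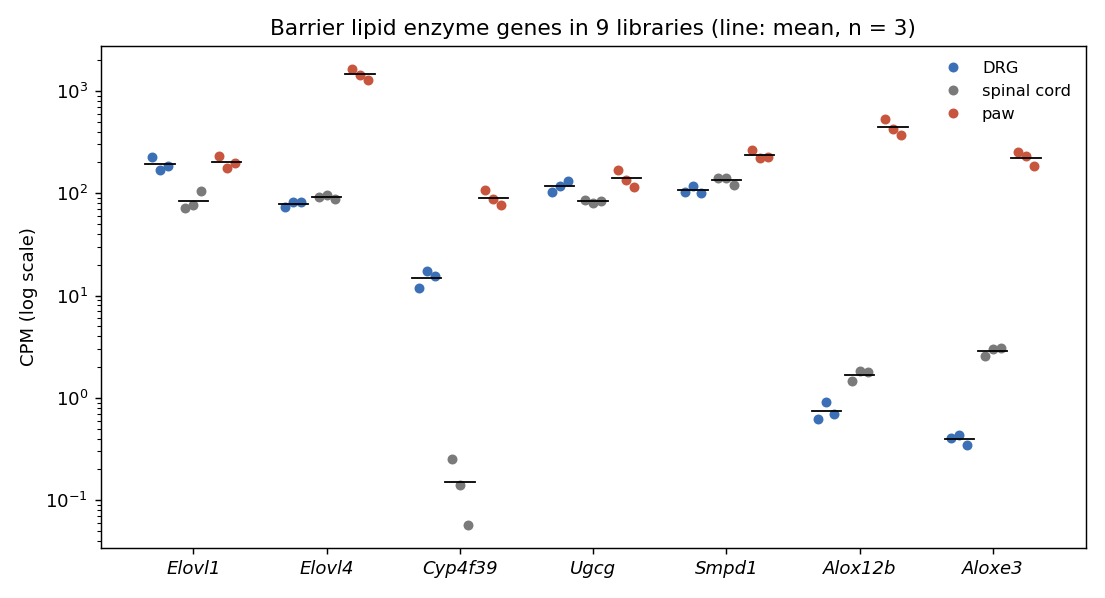
Level of each gene in CPM (log axis) in the 9 libraries, with a line at the mean of the 3 libraries of a tissue. Alox12b and Aloxe3 lie between 183 and 531 CPM in paw and at no more than 3.1 CPM elsewhere, Cyp4f39 falls to 0.149 CPM in spinal cord, and Elovl1, Ugcg and Smpd1 stay between 71.97 and 264 CPM in every library.

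Promoters are shown for the 3 genes with a RefSeq entry that lay furthest above both other tissues in paw, and for Ugcg, which varied least. RefSeq promoter entries (GRCm38.p6) were found for 6 of the 7 genes, with 7 start sites. Each line gives the 250 bases before the start, 5′ to 3′ on the gene's strand, with GC boxes (GGGCGG on either strand) in capitals. The windows are chr11:69156822-69157071 (plus strand) for Alox12b, chr9:83806306-83806555 (minus strand) for Elovl4, chr17:32452473-32452722 (plus strand) for Cyp4f39 and chr4:59189300-59189549 (plus strand) for Ugcg.
Alox12b: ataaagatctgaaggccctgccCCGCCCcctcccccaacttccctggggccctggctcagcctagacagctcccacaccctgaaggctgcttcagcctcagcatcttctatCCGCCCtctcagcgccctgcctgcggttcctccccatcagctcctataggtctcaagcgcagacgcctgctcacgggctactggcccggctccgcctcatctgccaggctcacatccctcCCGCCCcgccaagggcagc
Elovl4: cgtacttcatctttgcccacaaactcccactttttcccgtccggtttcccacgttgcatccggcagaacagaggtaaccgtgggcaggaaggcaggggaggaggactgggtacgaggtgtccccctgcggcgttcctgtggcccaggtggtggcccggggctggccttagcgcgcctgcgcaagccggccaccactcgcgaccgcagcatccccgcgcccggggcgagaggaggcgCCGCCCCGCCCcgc
Cyp4f39: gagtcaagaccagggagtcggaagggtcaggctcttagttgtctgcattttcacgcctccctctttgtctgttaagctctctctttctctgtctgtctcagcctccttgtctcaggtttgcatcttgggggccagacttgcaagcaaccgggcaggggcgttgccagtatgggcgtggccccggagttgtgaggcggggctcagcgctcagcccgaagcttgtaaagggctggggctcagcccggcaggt
Ugcg: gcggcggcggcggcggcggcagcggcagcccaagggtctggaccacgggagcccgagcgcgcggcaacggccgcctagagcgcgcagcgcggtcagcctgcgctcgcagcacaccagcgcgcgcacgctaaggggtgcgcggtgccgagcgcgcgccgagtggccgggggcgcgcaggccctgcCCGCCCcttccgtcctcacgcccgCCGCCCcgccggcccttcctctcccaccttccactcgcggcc

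The GC box was found in 6 of the 7 windows and in 32.7% of all 32851 promoter windows of the same length. Alox12b had 3 matches, Elovl4 2 that overlap by 1 base, Ugcg 2 and Cyp4f39 0. CpG dinucleotides numbered 11 in Alox12b, 25 in Elovl4, 10 in Cyp4f39 and 43 in Ugcg, where the median over all windows was 6. None of the 7 windows held the AP-1 motif TGANTCA (6.75% of all windows), the grainyhead motif AACCGGTT (0.116%) or TATAAA (12.4%), searched on both strands. CCAAT was found in 2 of the 7, those of Elovl1 and Smpd1, and in 33.8% of all windows. Aloxe3 and Alox12b are neighbours on chromosome 11, followed by Alox8.

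Among the elongases, Elovl4, which makes the ultra-long acyl chains of barrier ceramides, stood at 1646, 1427 and 1276 CPM in paw libraries 1 to 3. In DRG it was at 73.4, 82.6 and 81.5 CPM, and in spinal cord at 92.2, 96.9 and 87.5 CPM. The paw libraries lay far above the rest, and the DRG and spinal cord libraries did not overlap either. Paw exceeded DRG by 4.19 ± 0.13 on the log2 scale (± approximate standard error, adjusted p = 8.24e-11), and exceeded spinal cord by 3.97 ± 0.13 (adjusted p = 1.01e-10). This error is derived from the test statistic and is too small for a large fold on few reads. Between DRG and spinal cord the difference was −0.22 ± 0.12 (adjusted p = 0.124), and it was called only in the fit of those 2 tissues alone (−0.22, adjusted p = 0.0453).

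Elovl1, which extends saturated and monounsaturated acyl chains in most cells, had another order. It stood at 233, 175 and 197 CPM in paw, at 228, 169 and 185 CPM in DRG, and at 71.97, 77.2 and 104 CPM in spinal cord. Paw and DRG overlapped, and both lay above spinal cord. The difference between paw and DRG was 0.05 ± 0.16 (adjusted p = 0.776), and its sign turned without DRG library 2 or paw library 1. Spinal cord was exceeded by 1.25 ± 0.17 in paw (adjusted p = 2.54e-05) and by 1.20 ± 0.17 in DRG (adjusted p = 8.25e-05). In DRG and in spinal cord the library with most Elovl1 also had the highest sum of 5 Schwann and satellite glia markers. Those sums were 20366, 15281 and 15495 CPM in DRG libraries 1 to 3 and 7508, 7540 and 11179 CPM in spinal cord. The summed fibroblast markers were also highest in DRG library 1 (2875 CPM against 2000 and 1993) and in spinal cord library 3 (1042 CPM against 435 and 347). Their part in the Elovl1 level was not tested. The exons of Elovl1 overlap those of Cdc20 on the opposite strand by 53 bases in GENCODE M21, and Cdc20 stood at 0.803 to 16.2 CPM over the 9 libraries.

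Reads of the elongase pair were also compared inside each library, where depth and scaling cancel. The log2 ratio of Elovl4 to Elovl1 reads was 2.85 ± 0.17 in paw, 0.14 ± 0.35 in spinal cord and −1.29 ± 0.31 in DRG (SD, n = 3). The 3 tissues did not overlap. The paw ratio exceeded that of DRG 17.6-fold and that of spinal cord 6.52-fold, and the DRG ratio was 2.69-fold below that of spinal cord. With 3 libraries against 3 the two-sided exact permutation test cannot go below p = 0.1, which each of these contrasts reached (adjusted p = 0.129 over 9 ratio tests).

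Cyp4f39, the omega-hydroxylase, was the only one of the 7 with a clear DRG level and almost no reads in spinal cord. It had 1797, 1422 and 1295 reads in paw, 266, 357 and 313 reads in DRG, and 5, 3 and 1 reads in spinal cord. These are 108, 87.7 and 76.2 CPM in paw and 11.9, 17.2 and 15.5 CPM in DRG, while 2 of the 3 spinal cord libraries were at or under the floor of 3 reads. No tissue overlapped another. For Cyp4f39 paw exceeded DRG by 2.61 ± 0.17 (adjusted p = 5.89e-08) and exceeded spinal cord by 9.15 ± 0.30 (adjusted p = 1.11e-10). DRG exceeded spinal cord by 6.54 ± 0.32 (adjusted p = 1.62e-08), and 0.379% of tested genes had a larger change in that direction. With 9 reads over spinal cord, the ± of both differences from spinal cord is smaller than the counting error.

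The DRG level of Cyp4f39 was 16.4% of its paw level. Of the 14 keratinocyte markers, 13 had a DRG level of at most 0.492% of paw, with a median of 0.0487% over all 14. The exception was Itgb4, an integrin subunit, at 123%. Muscle markers varied widely between the DRG libraries. Their sum was 573, 890 and 28.5 CPM in libraries 1 to 3, beside 11.9, 17.2 and 15.5 CPM of Cyp4f39, so library 2 was highest in both and the library lowest in each differed. Their part in the Cyp4f39 level was not tested. Library 3 as the lone DRG library gave a log2 difference from spinal cord of 6.61, in a fit that assumes it to vary like the other tissues.

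**Figure D2:**
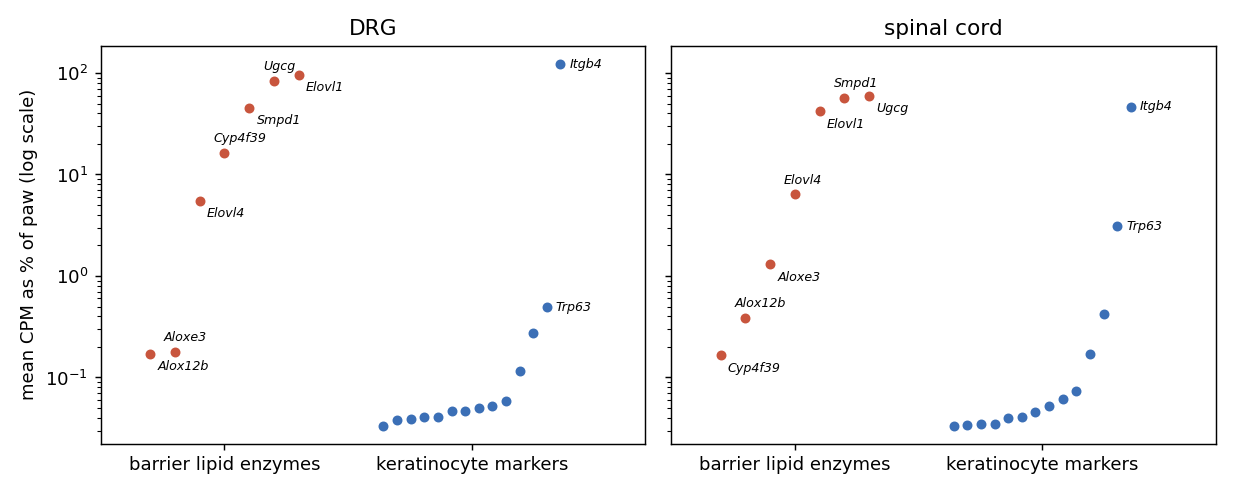
Mean level in DRG (left) and spinal cord (right) as a percent of the mean in paw (log axis), for the 7 enzymes in red and the 14 keratinocyte markers in blue, with 1 point per gene. Cyp4f39 lies at 16.4% in DRG and 0.165% in spinal cord, Aloxe3 at 0.177% and 1.3%, and the median keratinocyte marker at 0.0487% and 0.0494%.

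Ugcg, glucosylceramide synthase, varied least between tissues. It stood at 169, 136 and 115 CPM in paw, 104, 118 and 131 CPM in DRG, and 86.2, 79.8 and 83.6 CPM in spinal cord. Paw and DRG overlapped, and both lay above spinal cord in every library. The excess over spinal cord was 0.75 ± 0.14 in paw (adjusted p = 0.000287) and 0.50 ± 0.14 in DRG (adjusted p = 0.00755). Between paw and DRG the difference was 0.25 ± 0.13 (adjusted p = 0.105). It was called with upper quartile scaling (0.37, adjusted p = 0.0189), which moved the median of all genes by 0.12 the same way, and without paw library 3 (0.37, adjusted p = 0.0185).

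Smpd1 was at 264, 221 and 224 CPM in paw, 103, 117 and 99.9 CPM in DRG, and 140, 141 and 120 CPM in spinal cord. The 3 tissues did not overlap. Paw exceeded DRG by 1.15 ± 0.11 (adjusted p = 1.2e-06) and spinal cord by 0.82 ± 0.11 (adjusted p = 2.02e-05). DRG lay below spinal cord by −0.33 ± 0.11 (adjusted p = 0.0208). That call was lost without DRG library 1 (adjusted p = 0.067), DRG library 3 (adjusted p = 0.0858), spinal cord library 1 (adjusted p = 0.0857) or spinal cord library 2 (adjusted p = 0.0548), and with library 3 as the lone DRG library, assumed to vary like the other tissues (adjusted p = 0.0614). The log2 ratio of Ugcg to Smpd1 reads averaged 0.14 ± 0.22 for DRG, −0.68 ± 0.15 for spinal cord and −0.77 ± 0.17 for paw (SD, n = 3). DRG overlapped neither of the others (exact permutation p = 0.1, adjusted p = 0.129), whereas paw and spinal cord overlapped (exact permutation p = 0.6).

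Alox12b, the first lipoxygenase of the pair, had 8865, 6799 and 6275 reads in paw, 14, 19 and 14 reads in DRG, and 29, 39 and 31 reads in spinal cord. Its levels were 531, 419 and 369 CPM in paw, 0.625, 0.917 and 0.693 CPM in DRG, and 1.45, 1.82 and 1.78 CPM in spinal cord. Its paw excess was 9.20 ± 0.21 over DRG (adjusted p = 1.13e-11) and over spinal cord 8.03 ± 0.19 (adjusted p = 1.34e-11). Aloxe3, which acts on the product of Alox12b, had 4228, 3740 and 3116 reads in paw, 9, 9 and 7 reads in DRG, and 51, 65 and 54 reads in spinal cord. Its levels were 253, 231 and 183 CPM in paw, 0.402, 0.434 and 0.347 CPM in DRG, and 2.55, 3.03 and 3.1 CPM in spinal cord. Its paw excess was 9.11 ± 0.19 over DRG (adjusted p = 1.01e-11) and over spinal cord 6.26 ± 0.16 (adjusted p = 1.66e-11). For both genes no tissue overlapped another. With 47 reads of Alox12b and 25 of Aloxe3 over DRG, the ± of differences from DRG, here and below, does not fully cover counting error.

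At these low levels both lipoxygenases were lower in DRG than in spinal cord, Alox12b by −1.17 ± 0.25 (adjusted p = 0.00198) and Aloxe3 by −2.85 ± 0.23 (adjusted p = 1.08e-06). Both calls held under all alternatives tried, up to adjusted p = 0.0361 and adjusted p = 0.000302. The log2 ratio of Aloxe3 to Alox12b reads was −0.98 ± 0.11 in paw and −0.87 ± 0.23 in DRG, which overlapped (exact permutation p = 0.6). It was 0.77 ± 0.04 in spinal cord, above both others without overlap (exact permutation p = 0.1, adjusted p = 0.129). In spinal cord the ratio was 3.37-fold that of paw and 3.12-fold that of DRG. Aloxe3 in spinal cord was at 1.3% of its paw level and Alox12b at 0.383%. Of the keratinocyte markers, Trp63, a transcription factor of basal keratinocytes, was at 3.09% of paw in spinal cord, Itgb4 at 46.7%, and the median of the 14 was 0.0494%. Without Itgb4 the markers summed to 23.5 to 37.3 CPM in DRG and 44.6 to 47.2 CPM in spinal cord. Their part in the low lipoxygenase levels was not tested.

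**Figure D3:**
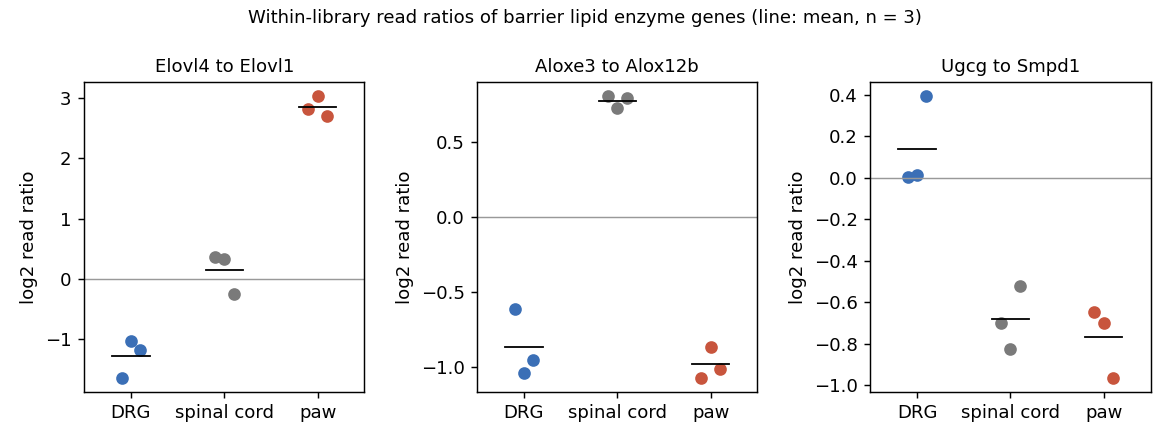
Log2 ratio of reads of 1 gene to another inside each library, with 1 point per library and a line at the mean of 3. Elovl4 to Elovl1 falls from 2.85 in paw to −1.29 in DRG, Aloxe3 to Alox12b stands apart in spinal cord at 0.77, and Ugcg to Smpd1 stands apart in DRG at 0.14.

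**Figure D4:**
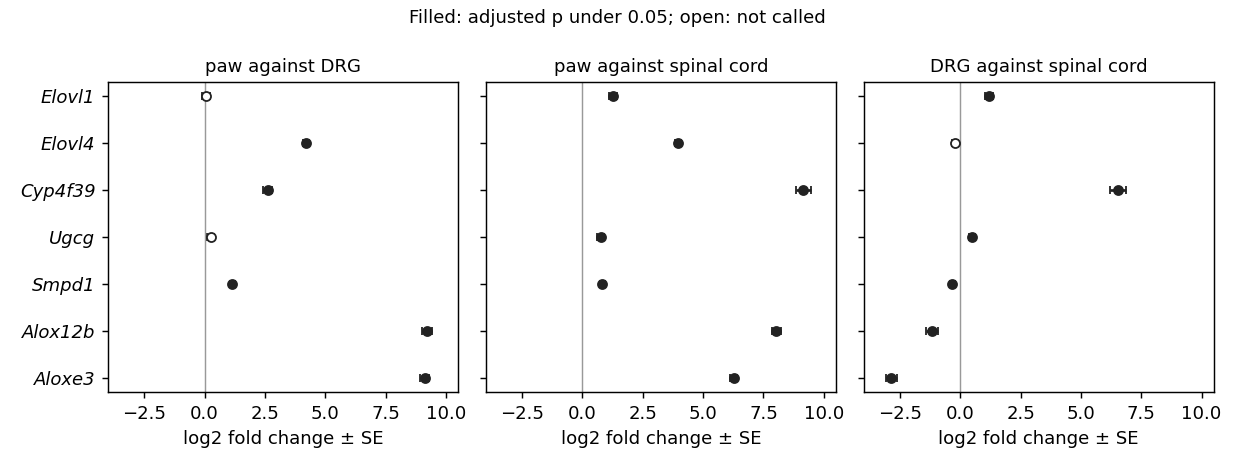
Log2 fold change with its approximate standard error for each gene in the 3 comparisons, filled where the adjusted p was under 0.05. The error is too small for large folds on few reads. The largest values are the 9.20 of Alox12b in paw against DRG and the 9.15 of Cyp4f39 in paw against spinal cord, and the open points are Elovl1, Ugcg and, in the right panel, Elovl4.

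Levels of different genes were set side by side only per kilobase of exon, from GENCODE M21, because the sources used here do not give the gene models behind the counts. In paw Elovl4 was at 479 ± 61.4 CPM per kb, followed by Alox12b at 181 ± 33.9 (SD, n = 3). Elovl1 at 73.95 ± 10.7 and Smpd1 at 70.9 ± 7.21 CPM per kb were within their spread of each other. Aloxe3 at 34.8 ± 5.55, Cyp4f39 at 31.7 ± 5.54 and Ugcg at 26.9 ± 5.19 followed. Among the paw libraries, Elovl1 and Smpd1 were lowest in library 2 and the other genes in library 3. As a part of each library's own sum, Ugcg (2.79 to 3.13%) lay below Cyp4f39 (3.38 to 3.63%) and Aloxe3 (3.63 to 4.16%) without overlap between libraries. That order depends on the exon lengths used, which may differ from those behind the counts. Elovl4 made up 53.4 ± 0.944% of the summed per-length level of the 7 genes in paw, Alox12b 20.1 ± 0.929% and Ugcg 2.98 ± 0.169%. The order was different in DRG, where Elovl1 led at 71.3 ± 11.2 CPM per kb, followed by Smpd1 at 31.96 ± 2.65, Elovl4 at 26.2 ± 1.66 and Ugcg at 22.6 ± 2.62. In spinal cord Smpd1 was at 40.1 ± 3.6 CPM per kb, and Elovl1 at 31.02 ± 6.39 and Elovl4 at 30.5 ± 1.55 were within their spread. The summed per-length level was 898 ± 126 CPM per kb in paw, 158 ± 5.18 in DRG and 119 ± 2.04 in spinal cord.

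Paw library 1 had the highest level of all 7 genes among the paw libraries. It also had the highest sum of keratinocyte markers, at 60698 CPM against 41654 and 43067 CPM. Per 1000 CPM of those markers, Elovl4 stood at 27.1, 34.3 and 29.6 CPM and Alox12b at 8.74, 10.1 and 8.58 CPM in libraries 1 to 3. On that scale library 2 was highest for 6 of the 7 genes, all but Elovl1. Most of the marker sum came from Krt1 (16274.5, 8480 and 9101 CPM) and Krt10 (25783, 17211 and 18914 CPM). The order of libraries on that scale therefore depends on these keratins and need not hold for other markers. Without paw library 1 no call of the 7 genes changed.

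The other genes of the barrier lipid pathway were followed as a list of 51, of which 50 passed the filter. Of these, 8 passed only through their paw libraries and so had to differ from the other tissues: Acer1, Alox12e, Elovl3, Cers3, Lipn, Pnpla1, Sdr9c7 and Tgm1. Their calls show nothing about the list. In paw against DRG 35 of the 50 were called higher and 9 lower, where 39.7% and 40.8% of all tested genes were. Without those 8 genes the counts were 27 and 9 of 42. The median log2 fold change was 1.39 over the 50 and 1.10 over the 42, beside −0.02 over all tested genes. Against spinal cord 37 of the 50 were higher and 11 lower in paw (background 39.9% and 41.7%), and 29 and 11 of the 42. The median was 1.61 over the 50 and 1.27 over the 42, beside −0.03. Between DRG and spinal cord 21 of the 50 were higher and 10 lower in DRG (background 29.0% and 30.6%), with a median of 0.37, beside −0.02. The counts by role below are descriptions to be read against the same backgrounds. They still count the 8 genes that passed only through paw. The ± given below for a large fold on few reads in a tissue is too small.

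In the lipoxygenase group, 7 of 8 genes were higher in paw than in each of the other tissues. Among them Alox12e, Lipn and Sdr9c7 passed the filter only through paw and had to differ. Sdr9c7, a dehydrogenase that acts after Aloxe3, had 6 reads in DRG and 4 in spinal cord, which were not called apart (0.45 ± 0.96). Its paw excess, which the filter required, was 10.91 ± 0.32 over DRG and 11.36 ± 0.34 over spinal cord. Alox15, another lipoxygenase, was lower in paw than in spinal cord (−2.95 ± 0.79, adjusted p = 0.00494) and not called against DRG (−1.70 ± 0.89). Spinal cord had 2 genes of the group at levels well above DRG. Nipal4, a membrane protein whose human counterpart is mutated in ichthyosis, was at 90.2 ± 17.1 CPM in paw, 29.6 ± 4.11 in spinal cord and 0.145 ± 0.0983 in DRG, with DRG below spinal cord by −7.64 ± 0.30 (adjusted p = 3.56e-09). Alox8, the neighbour of Alox12b, was at 24.6 ± 6.22, 17.3 ± 2.31 and 0.206 ± 0.0363 CPM, with DRG below spinal cord by −6.35 ± 0.29 (adjusted p = 8.96e-09). Alox8 was named after its values were seen.

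Of 10 elongation genes, 6 were higher and 4 lower in paw in both paw comparisons, beside about equal shares either way among all tested genes. Elovl3, among the 6, passed the filter only through paw. Elovl3, an elongase of hair follicle and sebaceous cells, had 7244 reads in paw, 3 in DRG and 2 in spinal cord, so paw stood 3063-fold over DRG (95% counting interval 1048 to 14859) and 4272-fold over spinal cord (1182 to 35286). Elovl2, which extends polyunsaturated chains, lay lower in paw, by −4.82 ± 0.19 against DRG and −6.59 ± 0.18 against spinal cord, and lower in DRG than spinal cord (−1.78 ± 0.12). Elovl7 lay higher in DRG than spinal cord (2.06 ± 0.12). Tecr, the last reductase of the cycle, was not called there (−0.30 ± 0.13, adjusted p = 0.0634). All 4 genes of fatty acid activation and transfer were higher in paw in both comparisons, though Pnpla1 passed the filter only through paw. Pnpla1, which joins linoleate to the hydroxylated chain, had 4691 reads in paw, 6 in DRG and 0 in spinal cord. Paw exceeded DRG by 9.86 ± 0.26 and was at least 1844-fold higher than spinal cord, against 3 reads over the group. Each DRG library had 3 reads or fewer, at or under the floor, so no fold is given between DRG and spinal cord.

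Ceramide synthesis genes were higher in paw for 9 of 12 against DRG and 10 of 12 against spinal cord. Both counts hold Cers3, which passed the filter only through paw. Sptlc3, a subunit of serine palmitoyltransferase, lay higher in paw than DRG (10.33 ± 0.30), with 4 reads over DRG. Cers3, the ceramide synthase for ultra-long chains (Lass3 in the files), lay higher in paw than spinal cord (8.31 ± 0.29). Cers2, the very long chain synthase prominent in myelinating cells (Lass2), was lower in paw than in DRG by −2.17 ± 0.11. Degs2 was lower in paw than in spinal cord by −2.16 ± 0.27, and Sptlc2 was not called in paw against DRG (0.21 ± 0.12, adjusted p = 0.124). Cers4 (Lass4) lay higher in DRG than spinal cord (1.29 ± 0.11), and Fa2h, a fatty acid 2-hydroxylase, was not called (0.01 ± 0.12, adjusted p = 0.958). Sptlc3 was lower in DRG than spinal cord by −3.57 ± 0.52, but its DRG libraries had 1, 2 and 1 reads, each under the floor.

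Of 13 genes of ceramide carriage and turnover, 7 were higher and 3 lower in paw than in DRG, and 7 and 4 against spinal cord. The 7 in each count include Acer1, which passed the filter only through paw. Acer1, the alkaline ceramidase of epidermis, had 13481 reads in paw and 3 in DRG, which gives 5701-fold (95% counting interval 1950 to 27649). Abca12, the lipid transporter of lamellar bodies, had 9279 reads in paw, 40 in DRG and 3 in spinal cord, and paw stood 3648-fold over spinal cord (95% counting interval 1248 to 17695) and DRG 12.4-fold over it (3.95 to 62.6). Psap, which yields the saposin cofactors of lysosomal hydrolases, lay lower in paw, by −1.78 ± 0.12 against DRG and −1.88 ± 0.12 against spinal cord, with DRG and spinal cord not called apart (−0.10 ± 0.12). Sgms1, a sphingomyelin synthase, was not called in paw against DRG (0.04 ± 0.08) or spinal cord (−0.05 ± 0.08). Acer2 was lower in DRG than in spinal cord by −1.30 ± 0.10. Of the last group, Tgm1, the transglutaminase of the cornified envelope, passed the filter only through paw. Its paw excess was 9.23 ± 0.23 over DRG and 10.31 ± 0.25 over spinal cord. It was not called between DRG and spinal cord (1.08 ± 0.46, adjusted p = 0.0614). Sult2b1, which sulphates cholesterol, was lower in DRG than in spinal cord by −2.09 ± 0.23.

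**Figure D5:**
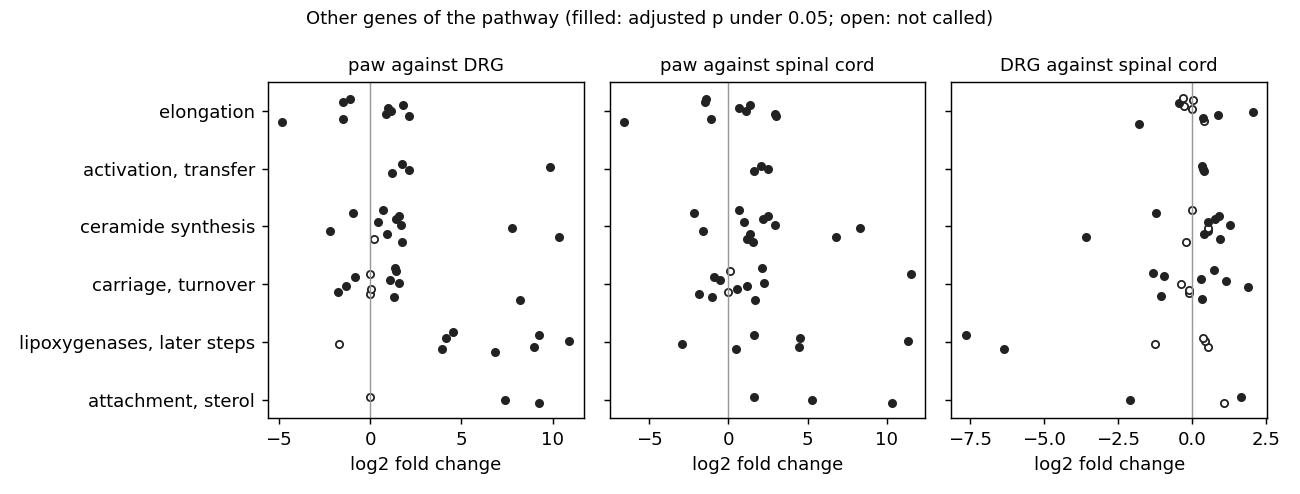
Log2 fold change of the other pathway genes in the 3 comparisons, grouped by role, with 1 point per gene, filled where the adjusted p was under 0.05. Genes with 3 reads or fewer over only 1 tissue of a comparison are left out, which leaves 48, 45 and 45 points. Elovl3, with 3 reads in DRG and 2 in spinal cord, stays in the panel of those tissues. The lipoxygenase group lies right of 0 in both paw panels except Alox15, and includes genes that passed the filter only through paw.

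The genes with the most similar pattern were found by the root mean square (RMS) difference of log2 CPM, after subtraction of each gene's own mean, over the 9 libraries and 15018 genes of at least 1 CPM on average. This describes tissue order and has no test. For Alox12b they were Tmprss11d (RMS 0.18), Sbsn (0.27) and H60c (0.37), and for Aloxe3 Gm14137 (0.29), Sptlc3 (0.33) and Coch (0.33). For Elovl4 they were Pon3 (0.09), Fabp5 (0.10) and Avpi1 (0.14). Fabp5, a fatty acid binding protein, stood at 514 CPM in paw, 31.01 in DRG and 37.7 in spinal cord. For Cyp4f39 the closest gene was Scn4a (0.45), the sodium channel of skeletal muscle, at 91.7 CPM in paw, 13.2 in DRG and 0.207 in spinal cord, followed by Scin (0.66) and the mast cell gene Tpsb2 (0.70). For Elovl1 they were Tiparp (0.14), Cav2 (0.14) and Plscr4 (0.15), for Ugcg Def8 (0.09), Fbxo28 (0.10) and Golt1b (0.11), and for Smpd1 Csnk2b (0.06), Ddx20 (0.07) and Vps37b (0.07). Among the 7 genes themselves the closest pair was Elovl1 and Ugcg (0.39), and Alox12b and Aloxe3 were 0.78 apart.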

How the data were processed

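Each library has 1 file of counts, deposited by the authors as whole reads for each gene symbol, with 22609 genes and 5 summary rows. Per the labels' protocols, libraries were stranded, poly(A)-selected and read as 50 bp single ends. The submitters' processing notes name bcl2fastq, TopHat2, HTSeq and mm9. Versions, gene models and strand setting: not given in the sources used. For that reason overlapping and antisense genes are uncertain, as are families with near-identical copies such as keratins. Summary rows held 42.9 to 59.3% of each file and stayed out of library sizes. No same-tissue pair agreed within counting noise (chi-square per degree of freedom 7.55 to 38.4), which does not show that the libraries came from separate animals. All genes and all 9 libraries were fitted by tissue in edgeR 4.0.16 (R 4.3.3) with filterByExpr, TMM and glmQLFTest, with Benjamini-Hochberg adjustment. The SE is the log2 fold change divided by the square root of F. It is approximate, and for large folds on few reads it is smaller than the counting error. Read ratios used reads + 0.5. Alternatives used DESeq2 1.42.0, limma 3.58.1, other scaling, no filter, a replicate block and left-out libraries. Intervals and floors cover counting error only. Functions were tested on simulated counts. Of 113 list entries 112 matched a symbol, 9 through an older one. Pathway genes are named as the largest called change each way and the most expressed gene not called, per role and comparison; 1 such gene is not reported here. Enzymes, lists and rules were chosen with earlier results of these data known.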

Additional observations from a re-analysis of the deposited data

How the results depend on the processing

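Of 336 fold changes of the 7 enzymes under alternatives, 326 kept their direction and their side of the threshold, 5 lost the call, 3 gained it and 2, both small and not called, turned sign. The cause was not tested. Smpd1 in DRG against spinal cord lost its call with 1 lone DRG library, whose spread was taken from the other tissues (−0.42, without libraries 1 and 2), and when single libraries were left out, where its value ran from −0.39 to −0.28. Ugcg in paw against DRG was called with upper quartile factors (0.37), and ran from 0.083 to 0.37 with single libraries left out. Elovl4 in DRG against spinal cord was called with only those tissues fitted (−0.22). Elovl1 in paw against DRG ran from −0.075 to 0.18 with single libraries left out, turning to −0.02 without DRG library 2 and −0.075 without paw library 1. Among the ratios, Aloxe3 to Alox12b in paw against DRG ran from −0.20 to 0.014, above 0 without DRG library 1, and Ugcg to Smpd1 in paw against spinal cord from −0.16 to 0.0095, above 0 without paw library 3. Counts of called enzymes ran from 5 to 6 for paw against DRG and from 2 to 4 for those lower in DRG than in spinal cord, and were 7 and 3 throughout for the others. Of 9 same-numbered pairs of samples, 2 had deviations from their tissue means correlated over 0.1 (−0.13 to 0.27, against −0.45 to 0.34 for other pairs). With 3 libraries per tissue this cannot show whether equal numbers mean the same mouse. With the replicate block 6368 genes were called higher and 6538 lower in paw than in DRG, 6404 and 6670 than in spinal cord, and 4630 and 4870 in DRG against spinal cord, in place of 6386 and 6560, 6422 and 6705, and 4660 and 4924. The block changed no call of the 7 enzymes. Depth limits Cyp4f39 in spinal cord, with 9 reads over 3 libraries.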
